A study of Mus musculus with 24 samples.

Results

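Dexamethasone (Dex), a synthetic glucocorticoid, lowers the inflammatory response of fibroblasts to bacterial lipopolysaccharide (LPS). The comparison described here asks how far that action differs between cells with the wild-type glucocorticoid receptor (GR) and cells with the mutant receptor GR Zn/Zn. The measure is the genotype difference, the log2 change with Dex under LPS in the mutant minus that in wild type. A positive genotype difference means that Dex left a gene higher in the mutant than its action in wild type would give, and a negative one the reverse. It was read from 12 of the 24 libraries of the series, chosen by their labels alone, with 3 libraries in each of 4 groups. These are wild type (GR wt/wt) with LPS, wild type with Dex and LPS, GR Zn/Zn with LPS, and GR Zn/Zn with Dex and LPS. All cells were mouse embryonic fibroblasts, connective tissue cells grown for 7 days from male C57BL/6 embryos of day 13.5 after removal of head and inner organs. Every culture in these groups received LPS at 100 ng/ul for 6 h, and before that either ethanol vehicle or 1 uM Dex, 16 h of either in all. The other 12 libraries, vehicle or Dex without LPS in both genotypes, give the same measure in separate cells. Nothing in the labels ties a replicate to its own embryo or culture. The p-values therefore measure only how these libraries spread, which may be technical, and an effect of genotype cannot be told apart from one of the cultures that had it.

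GR is a hormone-activated transcription factor. Hormone brings it to the nucleus, where it binds glucocorticoid response elements in DNA and raises genes such as Fkbp5, and where it also lowers genes driven by NF-kB, AP-1 and interferon regulatory factors. GR Zn/Zn carries an altered zinc finger in the DNA-binding domain. LPS is sensed by the receptor TLR4, whose MyD88 arm activates NF-kB and AP-1 and whose TRIF arm activates IRF3 and type I interferon. Interferon then acts through STAT2 and IRF9 on a large set of antiviral genes.

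The 12 libraries held 18893069 to 57954068 reads counted in genes, and 19163 to 21362 genes had at least 1. Levels are CPM, counts scaled to a common library total, and 3 reads, the limit that a count of 0 allows, equal 0.0518 to 0.159 CPM. The summed level of 14 fibroblast markers was 16800 to 21100 CPM in the wild-type libraries and 23400 to 25400 CPM in the mutant libraries, with none at 0. Of the 14, 11 were called higher in the mutant with LPS, beside 12.6% of all genes tested. Leukocyte and macrophage markers summed to 94.4 to 105 CPM in the wild-type libraries and 200 to 230 CPM in the mutant libraries, and 2 of the 22, the T cell marker Cd3e among them, were at 0 in all 12. Endothelial markers (26.3 to 30.2 CPM in wild type, 12.4 to 15.3 in the mutant), epithelial markers (24.8 to 41.4 and 15.3 to 18.6 CPM) and cartilage and bone markers (2460 to 2690 and 1680 to 1870 CPM) were lower in the mutant. The part of these other cells in the results below was not tested. The replicate 3 library of wild type with Dex and LPS and GR Zn/Zn with LPS replicate 2 carry library numbers of a later series and were sequenced more deeply than the other 10. With replicate 1 of the same wild-type group, GR Zn/Zn Dex and LPS replicate 2 and a mutant vehicle library, they make 5 libraries that stood apart in earlier work on these data, 3 by number series and depth and 2 by how their values varied with transcript length. Counts below are given with and without these 5. Without them the group of wild type with Dex and LPS holds 1 library, which is then assumed to vary like the other groups.

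The action of Dex under LPS differed between the genotypes at 1581 of 15221 genes tested (10.4%) at an adjusted p below 0.05 in edgeR's quasi-likelihood test, with Benjamini-Hochberg adjustment over all genes. The genotype difference was positive at 816 of them (5.36%) and negative at 765 (5.03%), and 510 differed at least 2-fold. In wild type Dex lowered 1607 genes (10.6%) and raised 1591 (10.5%). In GR Zn/Zn it changed 1 gene, H2-T22 (0.00657% of those tested), a non-classical MHC class I gene that rose by 0.36 on the log2 scale (adjusted p = 0.0427). At an unadjusted p below 0.05 the mutant had 889 genes, and DESeq2 called 28, all higher. Without the 5 libraries the genotype difference was called at 2970 genes and the mutant effect at 160, of which 154 were higher and 6 lower. Less RNA per cell and fewer cells of a type cannot be told apart in these bulk libraries.

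Genes that Dex lowered in wild type and whose genotype difference was called positive are described here as having lost repression, and genes that Dex raised in wild type and whose genotype difference was called negative as having lost induction. Both conditions use the wild-type libraries, so the split describes the genes and is not a further test. There were 789 genes of lost repression (5.18% of those tested and 49.1% of the genes lowered in wild type) and 717 of lost induction (4.71% and 45.1% of the genes raised). Without the 5 libraries these counts were 1525 and 1191, and 705 of the 789 and 598 of the 717 were among them. For the genes of lost repression the median log2 change was -0.65 in wild type against 0.05 in the mutant, for those of lost induction 0.62 against -0.02. The call of the genotype difference also uses the mutant libraries, so the mutant medians of the 2 classes are in part selected. Over all 1607 genes lowered in wild type the mutant median was -0.0182, and over all 1591 raised it was 0.0271. A further 818 genes lowered and 874 genes raised in wild type had no call for the genotype difference, which does not show that the genotypes acted alike on them. In edgeR's test no gene was called in the same direction in both genotypes. Of the 28 genes that DESeq2 called higher in the mutant, edgeR called 6 raised and 20 lowered in wild type. The remaining 75 calls were at genes with no call in wild type, 27 with a positive and 48 with a negative genotype difference.

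The genotype difference was called more often where the wild-type change was larger. It contains the wild-type change, so with a mutant change near 0 this follows from how it is computed and is not a separate result. Of the 277 genes lowered at least 2-fold in wild type, 235 (84.8%) had a called genotype difference, and their median log2 change was -1.44 in wild type against 0.13 in the mutant. Of the 928 genes lowered by less than 0.5 on the log2 scale, 278 (30%) had one. Among the 269 genes raised at least 2-fold, 200 (74.3%) had a call, with a median log2 change of 1.38 in wild type against -0.000352 in the mutant. At the threshold stood Fnbp1 (genotype difference 0.25, adjusted p = 0.0497) and Gsap (0.42, 0.0493) on the inside of lost repression, and Msr1 (0.57, 0.0503) and Hivep2 (0.61, 0.0504) on the outside. For lost induction Vps26c and Nup37 were inside (-0.17 and -0.31, both at 0.0498), and Ldb3 and Rgs2 outside (-0.59 and -0.59, at 0.0506 and 0.0507).

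Both genotypes are compared gene by gene in the plot of log2 changes.

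**Figure D1:**
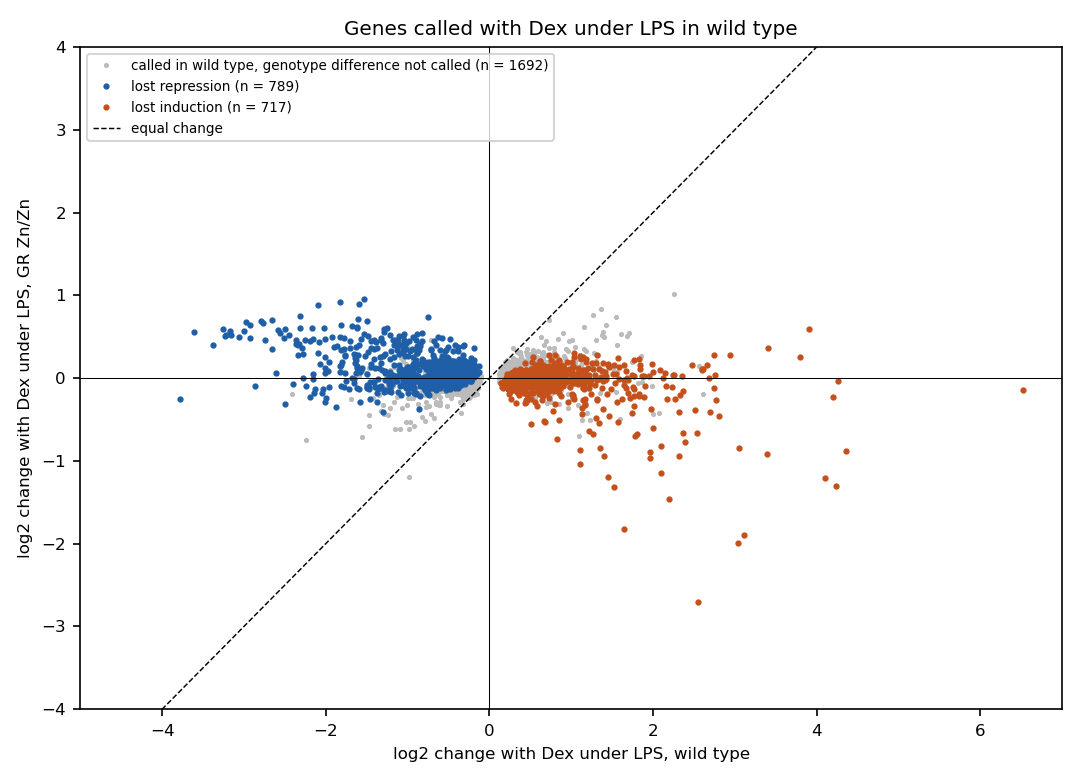
Log2 change with Dex under LPS in wild type (x axis) and in GR Zn/Zn (y axis) for each gene called in wild type, 1 point per gene. The 789 genes of lost repression (blue) and the 717 of lost induction (orange) spread along the x axis and lie close to 0 on the y axis, away from the dashed line of equal change; genes with no called genotype difference are grey.

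The 4 genes that mark the comparison were read first. Mx2, an interferon-induced antiviral GTPase, had 13.7, 14.9 and 13.0 CPM in wild type with LPS and 1.33, 1.43 and 1.45 CPM with Dex and LPS, a 9.86-fold lower level. In GR Zn/Zn it had 26.1, 24 and 29.3 CPM with LPS and 42.5, 32.1 and 39.2 CPM with Dex and LPS. The Dex libraries thus lay below the LPS libraries in wild type and above them in the mutant, with no overlap in either, and the genotype difference was 3.75 ± 0.16 (log2 ± SE, adjusted p = 6.34e-13). The change within the mutant, 0.52 on the log2 scale, did not pass (adjusted p = 0.0854).

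Il6 encodes interleukin 6, a cytokine that drives the acute phase response. Its level was 47.0, 49.5 and 53.5 CPM in wild type with LPS and 11.2, 9.54 and 12.3 CPM with Dex and LPS. The mutant libraries held 50.8, 59.3 and 56.4 CPM with LPS and 59.2, 58.2 and 55.5 CPM with Dex and LPS, so that its groups overlapped while those of wild type did not. The genotype difference of Il6 was 2.21 ± 0.13 (adjusted p = 6.5e-11). Mmp13, collagenase 3, had 45.8, 26.3 and 22.1 CPM in wild type with LPS and 6.45, 6.00 and 6.73 CPM with Dex and LPS. In the mutant it had 44.4, 37.0 and 44.6 CPM against 72.7, 37.0 and 43.8 CPM, with overlap. Replicate 1 was the highest of its group in wild type with LPS and in the mutant with Dex and LPS, and the genotype difference of 2.56 had the widest error of the 4 genes (SE 0.63, adjusted p = 0.00922; 0.0838 with DESeq2, which ends the call).

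Fkbp5 encodes a co-chaperone of GR and is among the standard genes for reading out receptor activity. Its level rose from 34.9, 37.9 and 40.3 CPM to 253, 243 and 235 CPM in wild type. In the mutant it was 42.7, 42.4 and 40.4 CPM with LPS and 42.5, 40.9 and 42.2 CPM with Dex and LPS, all within the same narrow range. The genotype difference was -2.69 ± 0.08 (adjusted p = 4.1e-16), the smallest adjusted p of all genes tested.

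**Figure D2:**
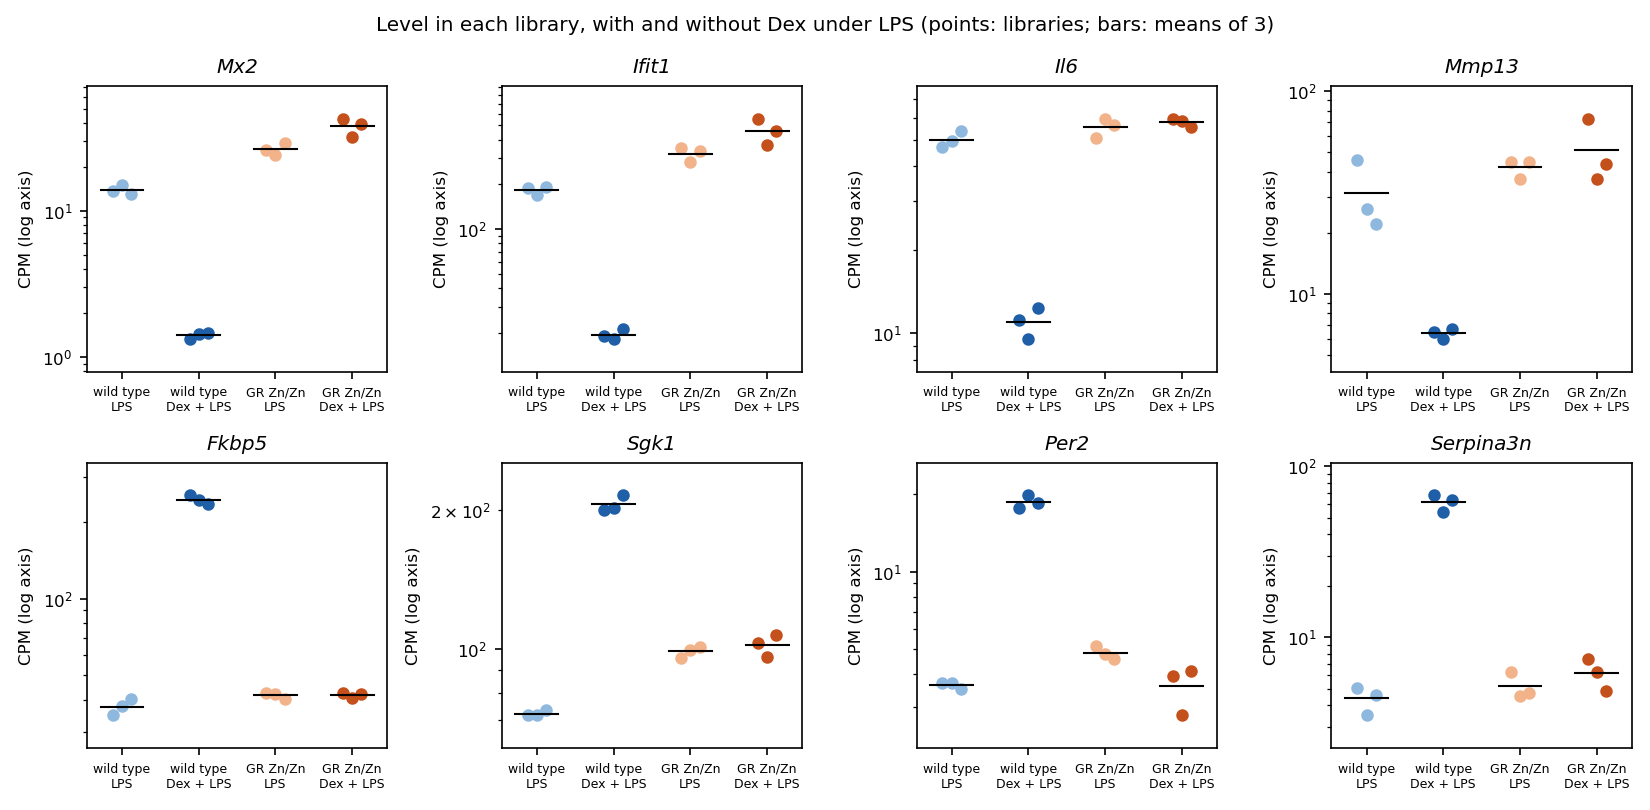
Level in CPM (log axis) of Mx2, Ifit1, Il6, Mmp13, Fkbp5, Sgk1, Per2 and Serpina3n in the 12 libraries, by group; points are libraries and bars the means of 3. In wild type the Dex and LPS libraries lie below the LPS libraries for Mx2, Ifit1, Il6 and Mmp13 and above them for Fkbp5, Sgk1, Per2 and Serpina3n, while in GR Zn/Zn Fkbp5 stays between 40.4 and 42.7 CPM.

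The stretches upstream of a few of these genes show the letters that the factors named above are known to bind. They were taken from RefSeq promoter entries on GRCm38.p6, 250 bases before the annotated start, written 5′ to 3′ on the gene's strand. Capitals mark matches, on either strand, to the interferon-stimulated response element (ISRE, by a core of 2 GAAA runs with 2 free bases between them), TGANTCA (AP-1), the NF-kB consensus or the glucocorticoid response element (GRE, by the inverted ACA and TGT of its palindrome around 3 free bases, with its outer G and C). The entries of Ifit1, Cxcl10, Il6 and Mmp13 are examples from lost repression and those of Fkbp5 and Serpina3n from lost induction.
Ifit1, chr19:34640639-34640888, + strand: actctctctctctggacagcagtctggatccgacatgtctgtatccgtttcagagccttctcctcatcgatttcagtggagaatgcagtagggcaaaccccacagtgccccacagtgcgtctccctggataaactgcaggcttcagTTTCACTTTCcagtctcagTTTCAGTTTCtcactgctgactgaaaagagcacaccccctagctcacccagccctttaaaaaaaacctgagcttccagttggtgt
Cxcl10, chr5:92348890-92349139, - strand: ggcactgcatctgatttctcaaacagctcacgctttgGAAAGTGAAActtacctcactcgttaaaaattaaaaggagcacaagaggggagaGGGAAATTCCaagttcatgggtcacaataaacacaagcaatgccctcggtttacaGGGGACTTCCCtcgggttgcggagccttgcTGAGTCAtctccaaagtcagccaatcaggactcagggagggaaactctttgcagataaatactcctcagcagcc
Il6, chr5:30012864-30013113, + strand: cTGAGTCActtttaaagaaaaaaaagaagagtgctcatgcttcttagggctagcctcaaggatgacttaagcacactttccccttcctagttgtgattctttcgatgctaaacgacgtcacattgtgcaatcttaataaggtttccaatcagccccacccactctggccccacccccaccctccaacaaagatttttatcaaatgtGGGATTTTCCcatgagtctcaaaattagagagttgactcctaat
Mmp13, chr9:7272264-7272513, + strand: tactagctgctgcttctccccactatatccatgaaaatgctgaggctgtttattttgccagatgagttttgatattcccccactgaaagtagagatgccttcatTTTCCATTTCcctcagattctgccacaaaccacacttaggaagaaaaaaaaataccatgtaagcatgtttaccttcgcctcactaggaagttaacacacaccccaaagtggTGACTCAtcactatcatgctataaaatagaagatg
Fkbp5, chr17:28486150-28486399, - strand: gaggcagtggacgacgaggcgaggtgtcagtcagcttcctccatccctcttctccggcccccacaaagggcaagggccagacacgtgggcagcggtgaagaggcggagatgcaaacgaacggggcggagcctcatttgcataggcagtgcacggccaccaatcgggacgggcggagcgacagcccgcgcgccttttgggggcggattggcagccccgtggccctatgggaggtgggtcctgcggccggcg
Serpina3n, chr12:104406458-104406707, + strand: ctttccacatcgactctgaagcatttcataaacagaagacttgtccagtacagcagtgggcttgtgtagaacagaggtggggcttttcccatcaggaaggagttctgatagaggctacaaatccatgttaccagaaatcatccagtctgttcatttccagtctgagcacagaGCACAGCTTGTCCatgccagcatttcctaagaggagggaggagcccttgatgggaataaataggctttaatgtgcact

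In Ifit1 the ISRE letters began 104 and 85 bases before the start. The Cxcl10 stretch held an ISRE match at 213 bases, NF-kB matches at 159, 104 and 103 bases, the last 2 overlapping, and an AP-1 match at 74. Il6 held an AP-1 match at 249 and an NF-kB match at 44 bases, and Mmp13 an ISRE match at 146 and an AP-1 match at 35. Fkbp5 held none of the 4, and Serpina3n a GRE match at 78 bases. Of lost repression but not printed, Mmp3, Lif, Isg15 and Irgm1 held matches, and Il12b and Ptgs2 held none. Of lost induction but not printed, Glul held an ISRE match, and Sgk1 an ISRE and a GRE match in separate entries. A promoter entry was at hand for 11031 of the tested gene symbols, and the ISRE letters were in 3.15% of them, the AP-1 letters in 5.86%, the NF-kB letters in 10.7% and the GRE letters in 0.326%. A gene with several entries counted as matching if any of them held a match. Among 573 genes of lost repression the 4 shares, in the same order, were 12.6%, 12.7%, 12.6% and 0%. Among 556 genes of lost induction they were 3.42%, 8.09%, 10.1% and 1.62%. The interferon-stimulated list had ISRE letters in 35.7% of 28 genes, AP-1 letters in 25% and NF-kB letters in 21.4%. The cytokine list had AP-1 letters in 29.4% of 17 genes, NF-kB letters in 23.5% and ISRE letters in 5.88%. The metalloproteinase list had AP-1 letters in 38.5% of 13 and ISRE and NF-kB letters in 7.69% each, and the glucocorticoid-induced list GRE and NF-kB letters in 10% of 30 each. A match is a run of letters, not a measured binding site, and most genes of both classes had no match of these kinds in the 250 bases.

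Interferon-stimulated genes lost repression almost as a whole list. Of 40 antiviral genes of this kind, 36 lost repression and none was called in the other direction, beside 5.18% of all genes tested that lost repression. This list and those below were chosen with earlier results of these data known, so their counts are descriptions and not further tests. Their median log2 change with Dex was -1.64 in wild type against 0.43 in the mutant, beside 0.01 and -0.0076 over all genes tested. Genotype differences of the 36 ran from 0.60 for Ifi35 to 4.17 for Ifit3b, whose reads may be shared with its near-identical copy Ifit3. The members without a call were Isg20, Oas1g, Ifi27 and Ifitm3, none of which passed the test in wild type either.

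Ifit1, which encodes a protein that binds foreign RNA, was among the highest of the list. It had 190, 169 and 193 CPM in wild type with LPS and 18.9, 18.2 and 21.2 CPM with Dex and LPS, against 351, 284 and 334 CPM and 552, 366 and 459 CPM in GR Zn/Zn. The genotype difference was 3.74 ± 0.22 (adjusted p = 1.93e-10), and the mutant groups did not overlap although the change within the mutant, 0.51, did not pass (adjusted p = 0.386). Usp18, a protease that removes the ubiquitin-like ISG15, went from 50.1, 46.5 and 51.8 CPM to 8.27, 8.51 and 7.78 CPM in wild type. Its mutant levels were 83.2, 65.7 and 80.3 CPM with LPS and 127, 95.6 and 118 CPM with Dex and LPS, again without overlap (genotype difference 3.17 ± 0.18, adjusted p = 4.26e-11). The other leading members were Ifit3 (3.84), Oasl1 (3.40), which is related to the oligoadenylate synthetases, and Tor3a (1.82), an interferon-responsive torsin ATPase.

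Guanylate-binding proteins and immunity-related GTPases, which act on vacuoles that hold microbes, lost repression in 17 of 17 tested members, beside 5.18% of all genes tested. Their median log2 change was -2.08 in wild type against 0.39 in the mutant. Igtp had 38.9, 35.2 and 40.0 CPM in wild type with LPS and 8.85, 5.33 and 7.65 CPM with Dex and LPS. In the mutant its levels were 66.2, 55.9 and 63.3 CPM, and 102, 70.4 and 82.9 CPM with Dex. The Dex libraries were all below in wild type and all above in the mutant, with a genotype difference of 2.82 ± 0.19 (adjusted p = 5.44e-10). Irgm1, Irgm2, Gbp3 and Tgtp2 had genotype differences of 2.15, 2.62, 1.87 and 3.56.

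The factors that carry the interferon signal were part of the loss. Of 18 interferon regulatory and STAT factors and their inhibitors, Dex lowered 12 in wild type, and 10 of them lost repression, beside 10.6% and 5.18% of all genes tested. Irf7, which amplifies interferon production, had 26.4, 24.5 and 25.7 CPM in wild type with LPS and 8.14, 5.87 and 6.18 CPM with Dex, against 57.4, 57.7 and 53.8 CPM and 83.9, 74.9 and 78.7 CPM in the mutant. Its groups overlapped in neither genotype, and its genotype difference was 2.42 ± 0.23 (adjusted p = 1.08e-07). Stat2, which binds DNA together with Irf9, had a difference of 1.5, Irf9 of 1.27 and Irf1 of 0.77. Socs1 and Socs3, inhibitors of cytokine signalling, were lower with Dex in wild type (log2 -0.58 and -0.32) with no call for the genotype difference (0.64 and 0.07, adjusted p = 0.15 and 0.851).

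Of 21 genes of MHC class I antigen presentation, 12 lost repression, beside 5.18% of all genes tested, with a smaller median change in wild type (-0.26) and one of 0.26 in the mutant. Cd274, which encodes the inhibitory ligand PD-L1, led the list: 19.5, 17.8 and 17.9 CPM fell to 2.62, 3.99 and 4.46 CPM in wild type, and the mutant held 32.2, 27.0 and 33.5 CPM with LPS and 54.4, 30.0 and 42.7 CPM with Dex and LPS, with overlap. Its genotype difference was 2.71 ± 0.26 (adjusted p = 1.47e-07). Psmb8 (1.45), an immunoproteasome subunit, and Tap1 (1.27), a chain of the peptide transporter, followed. H2-T22, the gene called in the mutant, had 102, 107 and 107 CPM with LPS and 142, 130 and 135 CPM with Dex and LPS there. In wild type the same gene had 62.0, 60.0 and 61.2 CPM and 57.9, 50.5 and 52.6 CPM.

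Over the 4 lists just described, 96 genes were tested. Dex lowered 77 of them in wild type, beside 10.6% of all genes tested. The genotype difference was called positive at 75, beside 5.36%. In the mutant 91 of the 96 had a log2 change above 0, with 62 higher and 2 lower at an unadjusted p below 0.05, beside 3.16% and 2.68% of all genes tested. A call after adjustment in the mutant was reached by 1 of the 96, the only one over all genes. Without GR Zn/Zn Dex and LPS replicate 2 it was reached by 16 of them, beside 27 over all genes. These genes also began higher in the mutant, where 80 of the 96 were called above wild type with LPS alone, beside 12.6% of all genes tested.

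**Figure D3:**
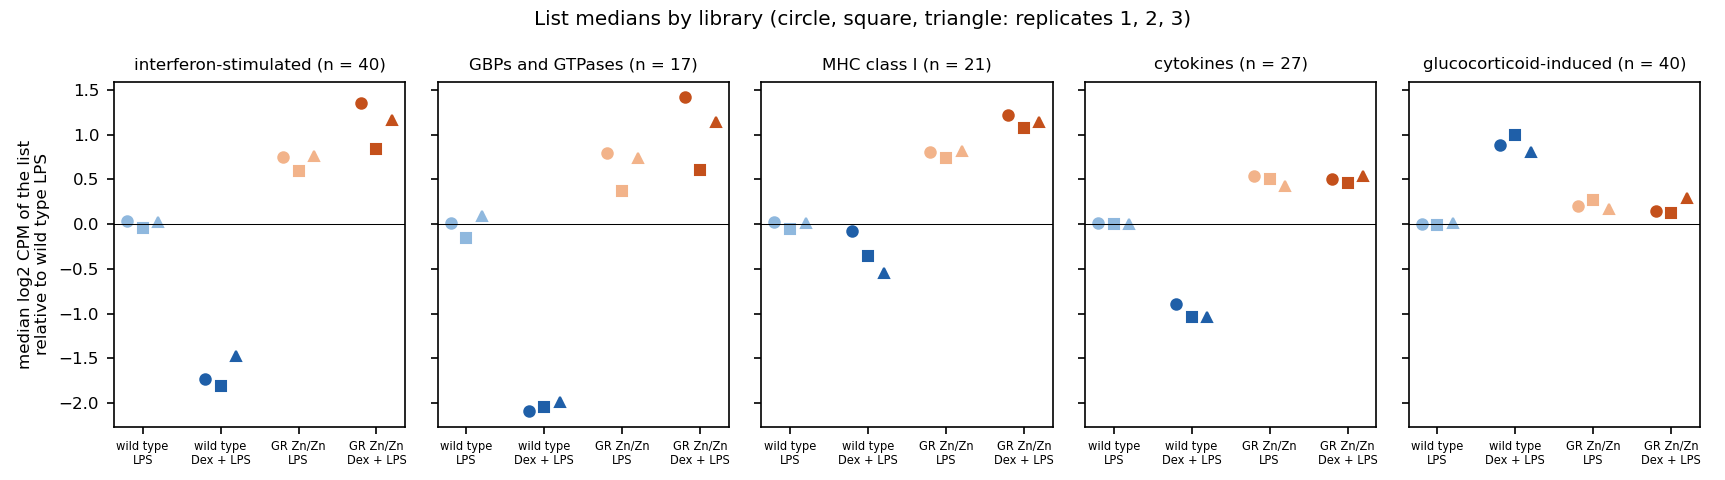
Median log2 CPM of 5 gene lists in each of the 12 libraries, relative to the mean of wild type with LPS; circles, squares and triangles are replicates 1, 2 and 3. In GR Zn/Zn the interferon-stimulated medians were 0.752, 0.600 and 0.758 with LPS and 1.36, 0.839 and 1.17 with Dex and LPS, while in wild type with Dex and LPS they were -1.73, -1.81 and -1.47.

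Inflammatory cytokines also lost repression widely. Of 27 tested members Dex lowered 20 in wild type, beside 10.6% of all genes tested, and 18 of these lost repression, beside 49.1% of all genes lowered. The median log2 change was -1 in wild type against 0.04 in the mutant. Il1b, interleukin 1 beta, fell from 36.4, 35.9 and 36.9 CPM to 6.27, 4.93 and 6.34 CPM in wild type, and the mutant held 76.1, 67.8 and 65.6 CPM without and 70.6, 77.9 and 69.9 CPM with Dex. The mutant groups overlapped, and all 6 libraries lay above wild type with LPS (genotype difference 2.67 ± 0.16, adjusted p = 1.93e-10). Tnf, tumour necrosis factor, showed the same order of groups, with 50.4, 50.5 and 55.4 CPM and 16.3, 15.9 and 16.2 CPM in wild type and 127.1, 122.9 and 114.8 CPM and 119, 126 and 122 CPM in the mutant (1.69 ± 0.12, adjusted p = 5.44e-10).

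Lif, a cytokine of the interleukin 6 family, was more abundant, at 315, 330 and 329 CPM in wild type with LPS and 104, 107 and 105 CPM with Dex. The mutant held 348, 386 and 363 CPM, and 381, 384 and 381 CPM with Dex (1.69 ± 0.08, adjusted p = 1.84e-12). Il12b, the shared p40 subunit of interleukins 12 and 23, had the largest genotype difference of the list, 3.53 ± 0.20, on levels of 9.46, 10.8 and 10.4 CPM falling to 0.534, 0.761 and 0.691 CPM in wild type. In the mutant it was 17.1, 16.0 and 14.5 CPM and 13.9, 11.8 and 14.0 CPM. Csf3, granulocyte colony-stimulating factor, and Il1rn, the interleukin 1 receptor antagonist, went the other way, raised by Dex in wild type (log2 0.69 and 0.61) and with negative genotype differences (-0.74 and -0.52, adjusted p = 0.0369 and 4.83e-05). Both were picked out after their values were seen.

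Chemokines, the secreted attractants of leukocytes, lost repression in 11 of 14 CXC and CX3C members and in 10 of 14 CC members, beside 5.18% of all genes tested, with no member called the other way. Cxcl10, which draws activated T cells, had 340, 312 and 331 CPM in wild type with LPS and 53.4, 43.3 and 50.2 CPM with Dex and LPS. In the mutant it had 803, 673 and 781 CPM, and 1190, 856 and 1040 CPM with Dex, without overlap (genotype difference 3.19 ± 0.15, adjusted p = 5.1e-12). The chemokines known as interferon targets, Cxcl9, Cxcl10 and Cxcl11, had genotype differences of 3.65, 3.19 and 3.35. Those of the neutrophil attractants Cxcl1, Cxcl2, Cxcl3 and Cxcl5 were 0.57, 0.71, 1.20 and 0.39, and Cxcl5 lost its call in 9 alternatives. Cx3cl1, fractalkine, fell in wild type from 235, 222 and 239 CPM to 113, 109 and 106 CPM and stayed at 214 to 239 CPM in all 6 mutant libraries (1.20 ± 0.08, adjusted p = 3.82e-10). Ccl2, the main monocyte attractant, had a difference of 0.76 ± 0.11, and Ccl5 one of 1.60 ± 0.18.

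Matrix metalloproteinases, which cut collagen and other matrix proteins, lost repression in 8 of 18 tested members of a list that includes their inhibitors, beside 5.18% of all genes tested. Mmp9, gelatinase B, had 45.0, 43.2 and 44.6 CPM in wild type with LPS and 11.6, 11.1 and 11.3 CPM with Dex, against 42.5 to 54.7 CPM in all 6 mutant libraries (genotype difference 1.85 ± 0.11, adjusted p = 8.39e-11). Mmp10, stromelysin 2, fell from 15.6, 16.9 and 14.7 CPM to 3.78, 3.13 and 3.30 CPM in wild type, and the mutant held 24, 26.1 and 23.1 CPM without and 20.9, 21.8 and 20.0 CPM with Dex. The 3 mutant Dex libraries of Mmp10 lay below its LPS libraries, with a log2 change of -0.23 that did not pass (adjusted p = 0.769). Mmp3 (1.37), Mmp12 (1.89) and the inhibitor Timp3 (0.91) also lost repression, and Mmp19 lost induction (-0.31). In the list of plasminogen activators and aggrecanases 6 of 14 lost repression (the same 5.18% over all genes), led by Plat, tissue plasminogen activator (1.06 ± 0.06, adjusted p = 9.89e-11), while the aggrecanase Adamts1 lost induction (-1.07 ± 0.09, adjusted p = 2.21e-08).

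Enzymes of prostaglandin, nitric oxide and itaconate synthesis lost repression in 8 of 18 members, beside 5.18% of all genes tested. Ptgs2, the inducible cyclooxygenase and a target of anti-inflammatory drugs, had 1020, 1070 and 1010 CPM in wild type with LPS and 254, 333 and 393 CPM with Dex and LPS. The mutant held 881, 841 and 967 CPM, and 980, 698 and 990 CPM with Dex, with overlap (genotype difference 1.65 ± 0.18, adjusted p = 7.35e-07). Nos2, the inducible nitric oxide synthase, had a genotype difference of 1.85 ± 0.17 and Pla2g4a, the phospholipase that frees arachidonic acid, one of 0.86 ± 0.10. Anxa1, which encodes the glucocorticoid-responsive anti-inflammatory protein annexin A1, lost induction (-0.60 ± 0.08, adjusted p = 1.43e-05).

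The lists of signalling genes are read beside 5.18% of all genes tested that lost repression and 4.71% that lost induction. Of 19 tested genes of the LPS receptor and its adaptors, 2 lost repression (Myd88 0.41, Tlr3 1.51), 2 lost induction (Lbp -0.94, Tlr13 -1.75) and 15 had no called genotype difference. Counts of 2 in 19 are too few to read as a result about the list, and Lbp lost its call without the 5 libraries (-0.61, adjusted p = 0.106). Among those with no call was Tlr4 (-0.06, adjusted p = 0.902). Of 26 NF-kB subunits, inhibitors and feedback genes, 6 lost repression, including Nfkb1 (0.42), Nfkbiz (0.56) and Tnfaip3 (0.53), which encodes the feedback inhibitor A20. The 3 that lost induction were Irak3 (-0.77), an inhibitor of MyD88 signalling, and the RNA decay factors Zfp36 (-0.31) and Zfp36l2 (-0.26). Of 17 AP-1 and immediate early factors 5 lost repression: Egr1, Egr2, Egr3, Ier3 and the AP-1 subunit Fosl1, whose call was lost in 8 alternatives. Among 12 MAP kinase phosphatases, which switch off stress kinases, Dusp1 lost induction (-0.41 ± 0.09, adjusted p = 0.00483; 0.0544 with only the compared libraries in the model), and Dusp4, Dusp5 and Dusp10 lost repression (0.79, 0.50 and 0.52).

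Without the 5 libraries standing apart, the genotype difference was positive at 38 interferon-stimulated genes, 17 GTPases, 19 cytokines, 11 CXC and CX3C chemokines and 9 CC chemokines, and negative at 28 glucocorticoid-induced genes. Among lists with at least 5 members in either count, those that moved over 1.5 times with all libraries as the base were MHC class I (19 positive), NF-kB (11 positive), LPS receptor (5 positive), MAP kinase phosphatases (5 positive), contractile (17 negative, 5 positive), cholesterol synthesis (16 negative) and adipogenic genes (11 negative). The count over all genes rose from 1581 to 2970 in the same step.

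**Figure D4:**
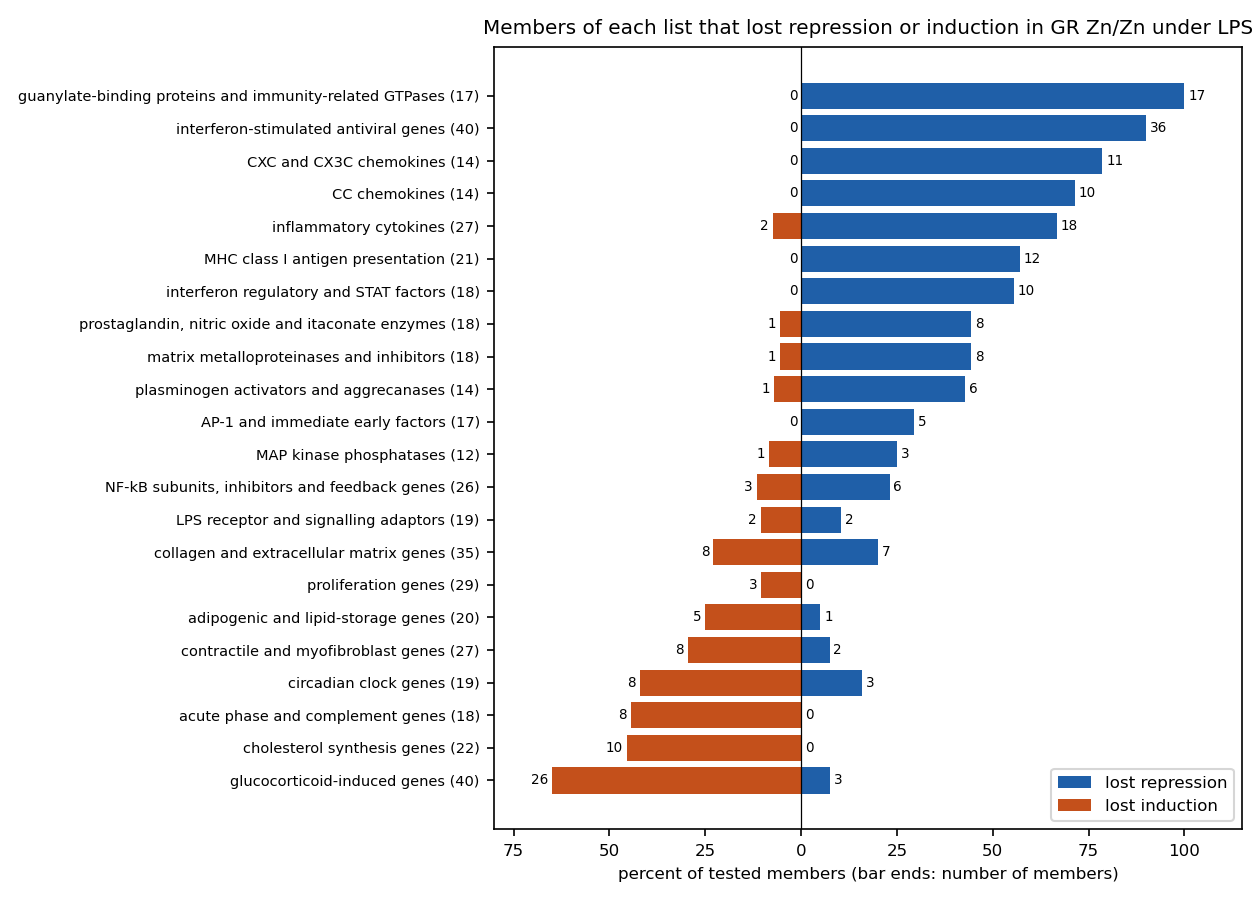
Percent of tested members of each gene list that lost repression (blue, to the right) or lost induction (orange, to the left), with the number tested in brackets and the number of members at the bar ends. The interferon-stimulated list has 36 of 40 members to the right, and the glucocorticoid-induced list 26 of 40 to the left.

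Of the lists, that of glucocorticoid-induced genes had the largest share of lost induction. Dex raised 27 of its 40 members in wild type and 26 lost induction, beside 4.71% of all genes tested that lost induction. Their median log2 change was 0.91 in wild type against -0.02 in the mutant. Tsc22d3, the gene of the leucine zipper protein GILZ, rose from 14.4, 14.5 and 15.2 CPM to 76.6, 66.4 and 68.2 CPM in wild type and lay between 17.9 and 20.5 CPM in all 6 mutant libraries. Its genotype difference was -2.22 ± 0.10 (adjusted p = 6.34e-13). Sgk1, a kinase that controls ion transport and cell survival, rose from 71.8, 71.7 and 73.5 CPM to 200, 202 and 215 CPM and was 95.4 to 107 CPM in the mutant (-1.46 ± 0.07, adjusted p = 1.84e-12). Glul, glutamine synthetase, rose in wild type from 35.1, 32.6 and 37.5 CPM to 88.4, 86.1 and 83.8 CPM, and was 26.6 to 31.1 CPM in the mutant (-1.38 ± 0.08).

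Zbtb16, a zinc finger repressor, had 0 reads in the 3 wild-type LPS libraries and 752 reads (7.22 CPM over the group) with Dex and LPS, which is at least 158-fold higher against a floor of 3 reads over the group. The mutant had 4 reads in the LPS libraries and 2 with Dex and LPS. Angptl4, Il1rl1 and Cdkn1a, all on the glucocorticoid-induced list, were instead lower with Dex in wild type (log2 -1.36, -0.75 and -0.23) and lost repression, and were picked out after their values were seen. Angptl4, an inhibitor of lipoprotein lipase, fell from 50.6, 52.3 and 54.4 CPM to 23.5, 19.7 and 18.3 CPM, and the mutant held 37.3, 37.3 and 37.6 CPM without and 30.8, 39.0 and 32.5 CPM with Dex. Rgs2 was the one member raised in wild type without a called difference (adjusted p = 0.0507).

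Of 18 tested acute phase and complement genes, 9 rose with Dex in wild type, on top of LPS, and 8 lost that induction, beside 10.5% and 4.71% of all genes tested. Serpina3n, a protease inhibitor of the alpha-1-antichymotrypsin family, rose 14.0-fold, from 5.07, 3.50 and 4.62 CPM to 67.5, 54.0 and 63.4 CPM. In the mutant it was 6.24, 4.56 and 4.72 CPM with LPS and 7.43, 6.24 and 4.83 CPM with Dex, with overlap (-3.54 ± 0.23, adjusted p = 1.8e-10). Lcn2, the iron-scavenging lipocalin 2, had a genotype difference of -2.66, and Ptx3, pentraxin 3, one of -1.26.

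Circadian clock genes fell into both classes, which hold 4.71% (lost induction) and 5.18% (lost repression) of all genes tested. Of 19 tested members 8 lost induction, among them Per1, Per2, Cry1 and Cry2, the repressor arm of the clock, and 3 lost repression, Nr1d1, Nr1d2 and Bhlhe40. Per2 rose from 3.70, 3.71 and 3.53 CPM to 17.6, 19.7 and 18.4 CPM in wild type and was 5.15, 4.80 and 4.61 CPM with LPS and 3.95, 2.78 and 4.14 CPM with Dex and LPS in the mutant. The mutant Dex libraries of Per2 lay below its LPS libraries, with a log2 change of -0.41 that did not pass (adjusted p = 0.344). Its genotype difference was -2.73 ± 0.16 (adjusted p = 5.72e-11). Nr1d1, which encodes the repressor REV-ERB alpha, fell from 33.4, 29.7 and 30.9 CPM to 11.3, 12.1 and 10.6 CPM in wild type and was 30.0 to 34.3 CPM in the mutant (1.34 ± 0.10, adjusted p = 1.87e-09).

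Genes of fat storage, sterol synthesis, matrix and contraction are read beside the same 4.71% of all genes that lost induction and 5.18% that lost repression. Of 20 adipogenic genes 5 lost induction and 1 lost repression, with Fabp4, the fatty acid carrier of fat cells, going from 4.84, 4.31 and 5.16 CPM to 31.4, 26.6 and 29.7 CPM in wild type and staying at 4.29 to 5.30 CPM in the mutant (-2.50 ± 0.18, adjusted p = 1.23e-09). Of 22 cholesterol synthesis genes Dex raised 18 in wild type, beside 10.5% of all genes tested, and 10 lost induction. The median log2 change over the list was 0.43 in wild type and 0.095 in the mutant. Relative to wild type with LPS, the list medians of the mutant LPS libraries were 0.172, 0.155 and 0.161. Those of the mutant Dex and LPS libraries were 0.237, 0.276 and 0.224, without overlap. Lss (-0.55), Msmo1 (-0.53) and Sqle (-0.51), enzymes of the later steps of the pathway, had the smallest p-values of this list. Of 35 collagen and matrix genes 8 lost induction, led by Col11a1 (-1.44), and 7 lost repression, led by the hyaluronan synthase Has2 (1.59). Of 27 contractile genes 8 lost induction, among them Myocd, a coactivator of smooth muscle genes (-2.54), and Lmod1 (-0.95), and 2 lost repression. Of 29 proliferation genes 3 lost induction (Rrm2 -0.31, Cdc6 -0.33 and Ccnd1 -0.24), of which Cdc6 lost its call in 18 alternatives, DESeq2 among them (adjusted p = 0.0809), and Ccnd1 in 16.

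Among genes with a mean log2 CPM of at least 1, the 12 largest losses of repression included members of the interferon lists, such as Ifi44 (3.57), and the predicted genes Gm4841 (3.74) and F830016B08Rik (3.78), which are on no list. The 12 largest losses of induction included Aldh1a1 and Aldh1a7, near-identical aldehyde dehydrogenases whose counts may be split between them. Aldh1a1 rose from 0.868, 0.768 and 0.381 CPM to 13.1, 13.0 and 16.6 CPM in wild type and was 0.394 to 1.82 CPM in the mutant (-5.54 ± 0.68, adjusted p = 2.45e-06). Hspb7, a small heat shock protein of muscle, and Map7d2, a microtubule-associated protein, had genotype differences of -3.11 and -3.30. The liver gene Adh1 was also called (-3.17 ± 0.89, adjusted p = 0.0157), but its highest levels in the 12, 5.42 and 4.33 CPM, were in the 2 deeper libraries of the later series, and the value shrank to -1.16 (adjusted p = 0.107) without the later number series and to -1.71 (adjusted p = 0.119) without replicate 3 of wild type with Dex and LPS. The call was lost in 6 alternatives. Summed liver markers ranged from 2.67 to 240 CPM over the 3 libraries of wild type with Dex and LPS and from 26.3 to 150 CPM over those of the mutant with LPS, and their part in the calls was not tested.

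Of the 75 genes with a called genotype difference and no call in wild type, Shf (0.77 ± 0.17, adjusted p = 0.00261), an adaptor protein, had 8.13, 8.02 and 8.91 CPM and 8.23, 6.45 and 6.06 CPM in wild type. In the mutant it had 6.32, 6.79 and 6.79 CPM with LPS and 8.71, 10.1 and 9.17 CPM with Dex, without overlap. Slc7a7, an amino acid transporter, had a difference of 0.70 ± 0.16 of the same form. The 48 genes with a negative difference were mostly at low levels, with a median log2 CPM of 0.263 beside 4.26 over all genes tested. Ccbe1, a secreted factor of lymphatic growth, was one of higher level. It had 56.3, 54.7 and 54.2 CPM and 46.0, 35.1 and 44.0 CPM in the mutant. In wild type Ccbe1 had 51.3, 67.9 and 78.6 CPM with Dex against 55.9 to 57.2 CPM without. Its genotype difference (-0.62 ± 0.15, adjusted p = 0.00551) lost its call with only the compared libraries in the model (adjusted p = 0.0848).

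The same measure in the 12 libraries without LPS was called at 1064 genes (6.99%), 395 positive (2.6%) and 669 negative (4.4%). These libraries are separate from those that chose the classes. Without LPS the genotype difference was negative at 449 of the 717 genes of lost induction (62.6%) and positive at 249 of the 789 genes of lost repression (31.6%). Of the glucocorticoid-induced list 26 of 40 were negative without LPS. The measure for Fkbp5 was -2.92 without LPS and -2.69 with it, that for Sgk1 -1.46 in both, and that for Tsc22d3 -2.44 and -2.22.

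The genes that Dex changed in wild type under LPS can be read in libraries that did not choose them. In wild type without LPS, Dex also raised 896 of the 1591 genes raised under LPS (56.3%, beside 7.92% of all genes tested) and lowered 540 of the 1607 genes lowered under LPS (33.6%, beside 5.24%). In GR Zn/Zn under LPS, at an unadjusted p below 0.05, Dex left 3.16% of all genes tested higher and 2.68% lower. At the same limit 147 of the 1607 genes lowered in wild type were higher (9.15%) and 57 lower (3.55%). Of the 1591 genes raised in wild type, 99 were higher (6.22%) and 34 lower (2.14%). In GR Zn/Zn without LPS Dex changed 0 genes in the same test, with 1109 at an unadjusted p below 0.05. LPS alone changed 36.7% of all genes tested in the mutant, 19% higher and 17.7% lower. It raised 914 of the 1607 genes that Dex lowered in wild type (56.9%) and lowered 615 of the 1591 that Dex raised (38.7%). The genotypes differed at 24.5% of genes with LPS alone and at 31.7% with Dex and LPS.

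Interferon-stimulated genes gave other values without LPS than with it. Of the 40 none had a positive and 3 had a negative genotype difference without LPS, where the median was -0.35, beside 2.06 under LPS. LPS alone raised 39 of the 40 in wild type, beside 14% of all genes tested, so the values without LPS come from lower levels. The part of these lower levels was not tested. For Mx2 the genotype difference was 0.42 (adjusted p = 0.805) without LPS. Its levels in those 12 libraries, 0.10 to 0.30 CPM, were near the floor, as 3 reads equal 0.0565 to 0.154 CPM there. The difference between the 2 genotype differences, an interaction over all 24 libraries, was called at 148 genes (0.972%), 127 positive (0.834%) and 21 negative (0.138%). Of the 40 interferon-stimulated genes 29 were among the 127, of the 17 GTPases 7, of the 27 cytokines 5 and of the 40 glucocorticoid-induced genes 2. Of the 127 genes 107 had lost repression, beside 5.18% of all genes tested, and 13 of the 21 had lost induction, beside 4.71%. The interaction contains the genotype difference under LPS that chose these classes, so this overlap is not a further test. Without the 5 libraries the count was 626.

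Stat2 (1.92), Trim25 (1.74), an antiviral ubiquitin ligase, and Tor3a (1.67) had the smallest p-values of this interaction, together with Errfi1 (1.02, adjusted p = 4.47e-06), which encodes a feedback inhibitor of the EGF receptor. Errfi1 rose with Dex in wild type without LPS, from 98.8, 100.2 and 99.6 CPM to 187, 185 and 191 CPM. Under LPS it had 205, 221 and 204 CPM in wild type and 206, 222 and 229 CPM with Dex, and its genotype difference was -1.01 without LPS and 0.01 under it. Tmem119, a membrane protein of bone-forming and microglial cells, moved only under LPS by these calls, with -0.33 (adjusted p = 0.257) without LPS and -1.72 ± 0.16 under it (interaction -1.39, adjusted p = 0.000765). It rose from 32.5, 29.1 and 29.0 CPM to 124, 111 and 89.8 CPM in wild type under LPS and was 44.7 to 55.8 CPM in the mutant.

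**Figure D5:**
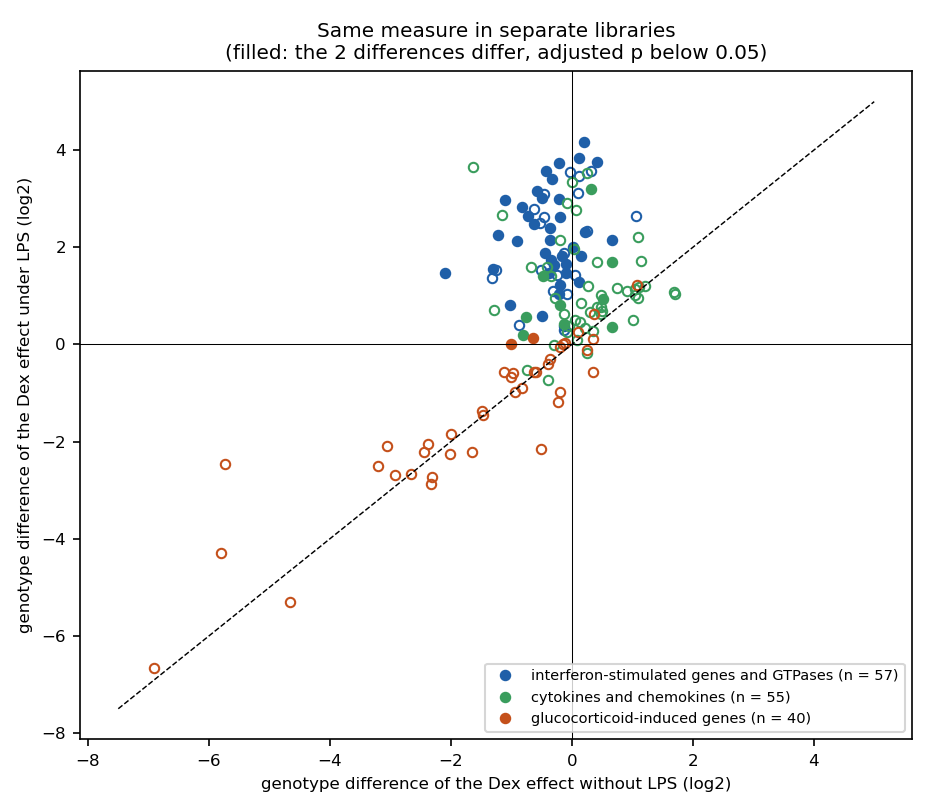
Genotype difference of the Dex effect without LPS (x axis, log2) and under LPS (y axis, log2) for members of 3 groups of lists, from separate libraries; filled points have a called difference between both values and the dashed line marks equal values. Glucocorticoid-induced genes (orange) lie along the line, with 2 of 40 filled, whereas interferon-stimulated genes and GTPases (blue) lie above it near 0 on the x axis.

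The authors' deposited tables of Dex under LPS, over 12588 genes, list 3059 genes at an adjusted p below 0.05 in wild type and 28 for the mutant. In the authors' deposited table for wild type 1617 of these were lower and 1442 higher, and in that for the mutant 1 was lower and 27 higher. The authors' deposited values for Mx2 are a log2 change of -3.29 in wild type against 0.53 in the mutant (adjusted p = 0.0164). Those tables give no genotype difference.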

How the data were processed

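Strand-specific RNA libraries were made by the authors with a TruSeq Stranded mRNA kit, per the labels' protocols. The deposited files hold read counts per gene, and the tools given in the submitters' processing notes are FastQC, STAR (2.4.2a, also as 2.4.2), DESeq2 and DESeq, with build mm10. The column for the reverse strand was used, as the opposite column held 2.7 to 2.91% of the gene reads of both strand columns together. The other count columns of the files served only for this share and for the unstranded alternative. Per the file headers, the authors' deposited comparison tables hold log2 fold changes and adjusted p-values. Reads in no feature (3.1 to 4.72%), in several loci (3.74 to 5.79%), unmapped (2.92 to 5.58%) or ambiguous (1.19 to 1.41%) stayed out of library sizes.

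Of 45706 entries, 27088 had a read and 15221 passed edgeR's filterByExpr (15173 with a symbol). One model over all 24 libraries, with 1 coefficient for each of 8 groups, was fitted with edgeR 4.0.16 (R 4.3.3; TMM scaling, robust quasi-likelihood fit, prior count 2), and a contrast was called below an adjusted p of 0.05 (Benjamini-Hochberg). The edgeR fit was tested on simulated counts for the genotype difference under LPS only. The other contrasts and fits were not tested in this way. DESeq2 1.42.0, other scalings and filters, and libraries left out were alternatives. The members and lists were chosen with earlier results of these data known. Genes are named by rule: Mx2, Il6, Mmp13 and Fkbp5; the 12 largest losses per class at a mean log2 CPM of at least 1; up to 5 per direction with no wild-type call; up to 6 per direction called alike in both genotypes, of which there were none; up to 5 per direction that differ with LPS; and, per list, up to 5 members by smallest p and up to 2 wild-type calls with the largest p. Others are named as exceptions or list members, after their values were seen. Promoter entries came from RefSeq on GRCm38.p6.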

Additional observations from a re-analysis of the deposited data

Results flagged for a closer look

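The Dex effect differed between the genotypes at 1581 genes under LPS and at 1064 genes without it, by the test of the difference itself. The difference between those 2 measures was called at 148 genes. Of the 4 marker genes, Mx2 (3.75), Il6 (2.21) and Mmp13 (2.56) had positive and Fkbp5 (-2.69) a negative genotype difference under LPS. By the interaction with LPS, the genes with the smallest p-values and a positive value were Stat2 (1.92), Trim25 (1.74), Tor3a (1.67), Gm6548 (1.34) and Errfi1 (1.02). Those with a negative value were Palmd (-2.09), Tmem119 (-1.39), Lgr4 (-0.87), Gramd4 (-0.79) and Runx1 (-0.60).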

How the results depend on the processing

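With only the compared libraries in the model, the genotype difference was called at 1042 genes under LPS and 1659 without it, the wild-type effect at 1544, the mutant effect at 0 and lost induction at 448; the interaction with LPS needs all 24 libraries and was not run there. Without the 5 libraries standing apart, the counts were 2970 under LPS, 2191 without it, 626 for the interaction, 1525 for lost repression, 1191 for lost induction and 160 for the mutant effect. Without the later number series the wild-type effect was called at 5052 genes and the mutant effect at 0. The mutant effect was called at 28 genes by DESeq2, 6 with no filter on low counts and 2 with the number series as a term. A replicate block gave 12 for the mutant effect and 1508 for the genotype difference. Pairing was read from each library's deviations from its group mean in log2 CPM. These deviations correlated at -0.371 to 0.282 between same-numbered libraries of different groups and at -0.321 to 0.437 between others. The numbers were therefore not taken as pairs. Leaving out 1 library at a time gave 1261 to 1935 genes for the genotype difference under LPS, 867 to 1013 without it, 116 to 216 for the interaction, 2423 to 4418 in wild type, 700 to 1031 for lost repression and 525 to 872 for lost induction. For the mutant effect it gave 0 to 27, the highest without GR Zn/Zn Dex and LPS replicate 2. The cause was not tested. Over 158 named genes, 3325 of 3471 values kept direction and call, 146 lost the call and 0 reversed, and 132 genes kept the call in every alternative run. Cdc6 lost it in 18, Ccnd1 in 16 and Ibsp in 14. The part of depth in the missed calls was not tested.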
